A study of Cicer arietinum with 24 samples.

Results

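Expression of 4 regulatory genes of chickpea was followed in leaf and developing seed of the small-seeded cultivar Himchana 1. The genes were the Dof zinc finger gene Ca_09238, the homeobox gene Ca_04491, the type-B response regulator (ARR-B) gene Ca_14780 and the C3HC4-type zinc finger gene Ca_09815. They were chosen because the study names them as candidates for seed size/weight, and they were found by gene identifier among 28269 genes with a value. Each of the 4 genes had exactly 1 locus of its own, so no value was summed or shared with another gene. The study had chosen candidates for CG context hypermethylation within gene body together with higher transcript levels in the large-seeded cultivar JGK 3 than in Himchana 1, at S3 stage for Ca_14780, at S5 stage for Ca_04491 and Ca_09815, and at both stages for Ca_09238. The S3 and S5 libraries of Himchana 1 thus took part in that choice, which favours low Himchana 1 values at those stages, and this cannot be told apart from seed stage within these libraries. Changes that involve neither stage are therefore given separately.

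RNA sequencing was performed on leaves and on whole seeds at 7 stages (S1 to S7) from field-grown Himchana 1 plants, with 3 biological replicates for each (24 samples). The study describes S1 as early-embryogenesis, S2 as mid-embryogenesis, S3 as late-embryogenesis, S5 as mid-maturation and S7 as late-maturation, and S4 and S6 carry only their stage number. Leaves were taken from mature plants while their seeds were at mid-maturation. A whole seed holds several tissues, so fewer cells of a type and less RNA per cell cannot be told apart.

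The values were FPKM, the fragments assigned to a transcript divided by its length and by the total mapped in that library, which allows comparison of levels between genes. The 3 replicates of a stage were given as 1 merged value. There is thus no replicate error and no test of any difference, and all differences describe these 8 libraries only. The depth is unknown, and values far below 1 FPKM are of unknown precision. The FPKM of all loci summed to between 723136 (S2) and 2515731 (S7), with 2109359 to 2515731 at S5, S6 and S7 and at most 1099779 (leaf) in the other libraries, while the 75th percentile lay between 10.7 and 11.7 FPKM in all of them. For each pair of libraries the log2 ratio was taken after adding 1 to every FPKM value, and a change was counted at 2-fold, a scale on which weakly expressed genes appear to change less than they do. Other scalings were tried, in which each library was brought to the same sum over genes (same sum), to the same typical ratio over broadly expressed genes (median ratio) or to the same 75th percentile of genes above 0 (upper quartile).

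Dof proteins are plant-specific transcription factors with a single zinc finger, and in cereal endosperm members of the family bind the promoters of storage protein genes. Homeobox genes encode transcription factors that pattern the embryo and maintain meristems in Arabidopsis. Type-B response regulators are the transcription factors at the end of the cytokinin phosphorelay, and cytokinin promotes cell division in young seeds. The C3HC4 signature is that of RING fingers, which occur in many ubiquitin ligases, although the study lists Ca_09815 among transcription factors. The subfamily of each chickpea gene was not examined, and their sequences were not used here.

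The 4 genes showed 4 different profiles (plot of FPKM by library). Ca_09238 and Ca_14780 were highest in leaf, Ca_04491 was highest at S4, and Ca_09815 was highest at S1 and nearly as high at S4. Leaf was the highest library for 17.9% of all genes, against these 2 of 4.

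**Figure D1:**
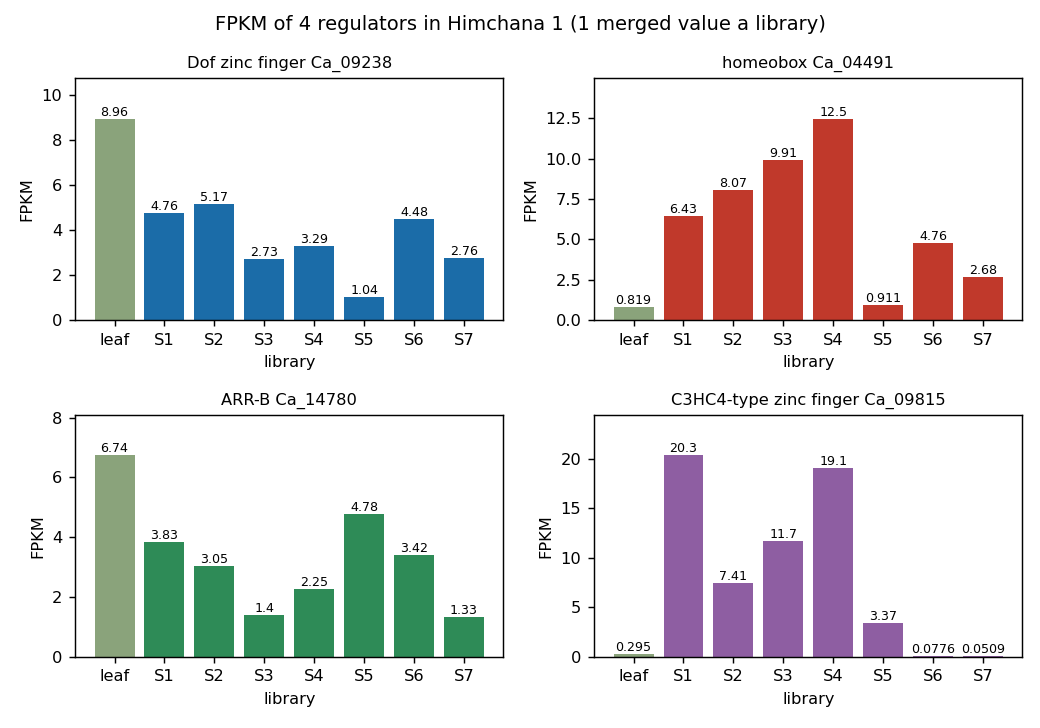
FPKM (vertical axis, from 0, own scale in each panel) of the 4 regulators in the leaf library and the 7 seed libraries (horizontal axis). Each bar is the 1 merged value of a library, without error bars. The Dof and ARR-B genes peak in leaf at 8.96 and 6.74 FPKM, the homeobox gene peaks at S4 (12.5 FPKM) and the C3HC4-type gene at S1 (20.3 FPKM).

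Among the 4 genes, Ca_09815 (C3HC4-type zinc finger) had the highest level and the widest range. Its FPKM was 20.3 at S1, 7.41 at S2 and 11.7 at S3, then 19.1 at S4, 3.37 at S5, 0.0776 at S6 and 0.0509 at S7, with 0.295 in leaf. Its transcripts were thus plentiful from S1 to S4, lower at S5 and close to 0 in the later stages and in leaf. The highest library exceeded the lowest 399.9-fold, a ratio that rests on the low S7 value of unknown precision. The values at S1 and S4 differed 1.07-fold, and without replicates their order is not settled.

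Between successive stages, Ca_09815 was 2.75-fold lower at S2 than at S1, a log2(FPKM + 1) change of -1.34. At this step 2.41% of all genes were lower and 4.29% higher by 2-fold, and Ca_09815 was the only one of the 4 regulators among them. A fall larger than that of Ca_09815 was found for 1.03% of all genes. Its level was then 2.57-fold higher at S4 than at S2 (log2 change of 1.25), a comparison that involves neither S3 nor S5, and 6.47% of all genes were higher and 7.19% lower by 2-fold there. No single step between S2 and S4 reached 2-fold, with changes of 0.60 from S2 to S3 and 0.66 from S3 to S4.

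From S4 to S5, Ca_09815 was 5.66-fold lower (log2 change of -2.20), and from S5 to S6 it was lower again, with a log2 change of -2.02. The ratio of the S5 to the S6 value was 43.5. Values at both S6 and S7 were more than 2-fold below each of the stages from S1 to S5, a pattern shown by 9.37% of all genes. The change from S4 to S6 was -4.22, and 19.4% of all genes were 2-fold lower and 19.8% higher over the same interval. Against leaf, Ca_09815 was higher at each stage from S1 to S5, by 68.9-fold at S1, 64.5-fold at S4 and 11.4-fold at S5. At S6 and S7 its level was below that of leaf, but all 3 values were under 1 FPKM.

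The homeobox gene Ca_04491 increased step by step to S4 and had a minimum at S5. It had 6.43 FPKM at S1, 8.07 at S2 and 9.91 at S3, followed by 12.5 at S4, 0.911 at S5, 4.76 at S6 and 2.68 at S7, with 0.819 FPKM in leaf. The S5 seed was thus nearly as low as leaf (1.11-fold higher), and each other seed stage was at least 3.27-fold higher than leaf.

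The steps of Ca_04491 up to S4 were small, 1.25-fold from S1 to S2, 1.23-fold from S2 to S3 and 1.26-fold from S3 to S4, and none reached 2-fold on the log2(FPKM + 1) scale. The step from S2 to S3 turned into a decrease (-0.16) after rescaling each library to the same sum, as the S3 library has a larger sum than S2. From S4 to S5 the level was 13.7-fold lower, a log2 change of -2.82, and 0.679% of all genes had a larger fall. From S5 to S6 it was 5.23-fold higher (log2 change of 1.59).

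Leaving out S5, Ca_04491 was still 2.62-fold lower at S6 than at S4 (log2 change of -1.22). Its lower level after S4 thus did not rest on the S5 library alone. A fall of this size was common, as 19.4% of all genes were 2-fold lower over that interval and 16.8% had a larger fall. Leaf and seed were compared stage by stage. On the log2(FPKM + 1) scale, Ca_04491 was above leaf by 2.03 at S1, 2.32 at S2 and 2.58 at S3, by 2.89 at S4 but 0.07 at S5, and by 1.66 at S6 and 1.02 at S7. A rise from leaf larger than that at S4 was found for 3.30% of all genes. The S7 value fell below 2-fold under the 3 other scalings (0.30 to 0.66), and the S6 value fell below 2-fold with the same sum (0.89).

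The Dof zinc finger gene Ca_09238 was a leaf-high gene with lower levels in seed. It had 8.96 FPKM in leaf, and 4.76 at S1, 5.17 at S2 and 2.73 at S3, then 3.29 at S4, 1.04 at S5, 4.48 at S6 and 2.76 at S7. All 7 seed values lay below leaf, and the seed values spanned 4.97-fold with the lowest at S5. Leaf exceeded the median of the seed stages (3.29 FPKM) 2.72-fold.

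Among successive stages, 2 steps of Ca_09238 reached 2-fold as deposited, both of which involve S5, and the step from S2 to S3 did so with the same sum (-1.20). Its level was 3.17-fold lower at S5 than at S4 (log2 change of -1.07) and 4.31-fold higher at S6 than at S5 (1.43). From S4 to S6, past S5, the change stayed under 2-fold and its direction turned with scaling, from 0.35 as deposited to -0.059 with the median ratio, -0.29 with the upper quartile and -0.95 with the same sum. The remaining steps lay between -0.72 (S2 to S3) and 0.20 (S3 to S4). Compared with leaf, Ca_09238 was 2-fold lower at S3, S4, S5 and S7, with the largest difference at S5 (8.62-fold), and the differences at S1 (-0.79), S2 (-0.69) and S6 (-0.86) did not reach 2-fold. The difference at S4 fell short of 2-fold with the same sum (-0.82) and the upper quartile (-0.98), whereas that at S6 passed 2-fold under all 3 other scalings (-1.26 to -1.77). The order of the 8 libraries also changed under each of these scalings, with leaf highest in all of them.

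The ARR-B gene Ca_14780 was also highest in leaf, but as deposited its seed profile ran opposite to that of the homeobox gene around S5. It had 6.74 FPKM in leaf, and 3.83 at S1, 3.05 at S2 and 1.40 at S3, then 2.25 at S4, 4.78 at S5, 3.42 at S6 and 1.33 at S7. The highest seed value was at S5 and the lowest at S7, with S3 close to it (1.40 and 1.33 FPKM). With the same sum the highest seed value was at S1 (6.69), and the value was 4.10 at S4 and 3.44 at S5. As deposited, Ca_14780 had the narrowest range of the 4 genes, 5.07-fold over all libraries and 3.60-fold over the seed stages.

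No step of Ca_14780 between successive stages reached 2-fold on the log2(FPKM + 1) scale as deposited, although the untransformed ratios reached 2.18-fold for the decrease from S2 to S3, 2.12-fold for the increase from S4 to S5 and 2.58-fold for the decrease from S6 to S7. With the same sum the step from S2 to S3 was -1.23. With a pseudocount of 0.1 the steps from S2 to S3 (-1.07), S4 to S5 (1.05) and S6 to S7 (-1.30) passed 2-fold. From S3 to S5 it was 3.42-fold higher (log2 change of 1.27), and 7.75% of all genes were 2-fold higher there. With the same sum this change was 0.56, under 2-fold. Low values at S3 are favoured by the choice of this gene at that stage. The increase from S4 to S5 (0.83) turned into a decrease (-0.20) after rescaling to the same sum. That rescaling lowered the median of 12212 genes, those that reached 1 FPKM in each of the 8 libraries, to -1.21, so that relative to this median Ca_14780 was 1.01 higher. Leaf exceeded each seed stage, by 2-fold on the log2(FPKM + 1) scale at S3 (-1.69), S4 (-1.25) and S7 (-1.73). With the same sum the difference at S4 was -0.90, under 2-fold. At S6 (-0.81 as deposited) it passed 2-fold under the 3 other scalings, and at S5 (-0.42) only with the same sum (-1.10). The order of its libraries below leaf changed under each scaling.

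Around S5, 2 of the 4 genes, Ca_04491 and Ca_09238, were at least 2-fold lower than at both S4 and S6. This pattern was looked for after the values were seen. It was shown by 1.56% of all genes (442 genes). Both genes kept it under the 3 other scalings, under which 1.38% to 8.49% of all genes showed it. Both genes had been chosen by the study at S5, and the S5 library is 1 merged value. As deposited, the median of the same 12212 genes moved by 0.44 from S5 to S6. Relative to that shift the changes from S5 to S6 were 1.15 for Ca_04491 and 0.98 for Ca_09238. From S4 to S5 the median was 0.02. With the same sum, the changes into and out of S5 relative to the median of these genes were -0.79 and 0.89 for Ca_09238. Both were under 2-fold. For Ca_04491 they were -2.63 and 1.03.

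**Figure D2:**
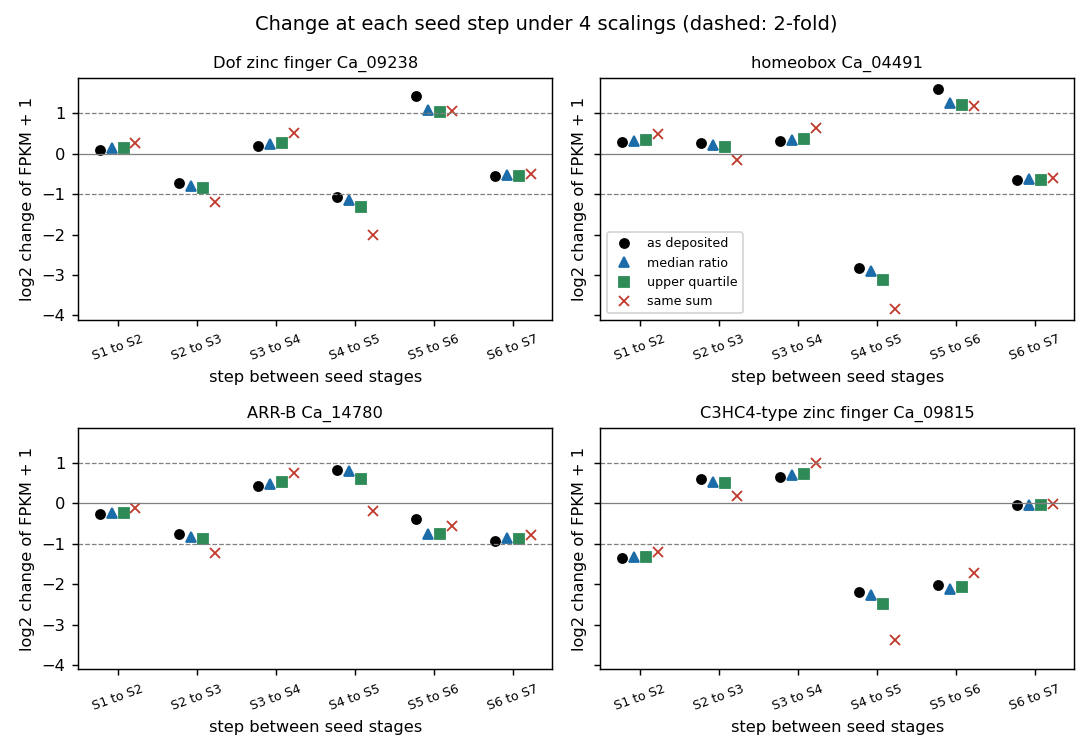
Change of each regulator (log2 of the ratio of FPKM + 1, later over earlier stage, vertical axis) at the 6 steps between successive seed stages (horizontal axis), as deposited and under 3 other scalings. Dashed lines mark 2-fold. The homeobox gene has the largest fall, -2.82 from S4 to S5 as deposited, and the ARR-B gene crosses 0 at the same step only with the same sum (-0.20).

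Counted over the 6 successive steps, 2 of the 24 gene-step pairs were higher and 5 lower by 2-fold. Over all genes, the share higher by 2-fold ran from 1.39% to 18.5% across these steps. The share lower ran from 2.29% to 17.1%. From S4 to S5, 3 of 4 regulators were lower, and 7.99% of all genes were lower by 2-fold at that step. These 3 genes are the ones the study chose at S5, a choice that favours low Himchana 1 values there. Ca_14780 was chosen at S3 only. The same 3 of 4 stood beside 40.3% of all genes with the same sum, 12.5% with the upper quartile and 8.81% with the median ratio. None of the 4 was higher, beside 7.57% of all genes. From S5 to S6, 2 of 4 were higher (18.5% of all genes) and 1 was lower (17.1%). As deposited, no regulator passed 2-fold from S2 to S3, where 5.67% of all genes were higher and 6.05% lower, from S3 to S4 (2.39% and 2.29%) or from S6 to S7 (1.39% and 3.22%). With the same sum 2 of 4, the Dof and ARR-B genes, were lower from S2 to S3, beside 14.3% of all genes, and the lower pairs over the 6 steps numbered 7 in place of 5. From S3 to S5, 1 of 4 was higher and 2 were lower (8.96% of all genes lower), and the Dof gene, at -0.87, passed 2-fold only with smaller pseudocounts, the same sum or the upper quartile. With 4 genes these shares are coarse, and nothing about the genes as a set is read from them.

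Leaf was compared with each seed stage in the same way. The homeobox and C3HC4-type genes were both higher by 2-fold at S1 (17% of all genes higher, 17.3% lower), S2 (15% and 15.9%), S3 (17.4% and 16.5%) and S4 (17.1% and 16.6%). The Dof and ARR-B genes were both lower by 2-fold at S3 and S4 and neither at S1 and S2. At S5 the C3HC4-type gene alone was higher and the Dof gene alone lower, beside 17% and 17.5% of all genes. At S6 the homeobox gene was the only one called (20.1% of all genes higher, 18.9% lower). At S7 the homeobox gene was higher and the Dof and ARR-B genes were lower (20.8% and 20.3%). In all, 11 of 28 gene-stage pairs were higher than leaf by 2-fold and 7 were lower by 2-fold. The pairs of a gene share its leaf value, so they are not independent. With the same sum, 9 pairs were higher and 8 lower by 2-fold. The counts were 10 and 9 with the median ratio, and 10 and 8 with the upper quartile. With a pseudocount of 0.1 they were 11 and 10.

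Ranks within a library do not depend on scaling between libraries. By FPKM, Ca_09815 stood at percentile 77.7 of all genes at S1 and 76.3 at S4, at 51.5 at S5 and at 35.5 at S7, where 8899 genes were listed at 0. Ca_04491 climbed from percentile 57.7 at S1 to 68.8 at S4, stood at 41.4 at S5 and at 59.4 at S6. Its minimum at S5 was thus seen in ranks as well. These ranks use the same S5 value, which took part in the choice of this gene, so they are no independent evidence.

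Ca_09238 stood between percentiles 42.3 (S5) and 58.9 (S6) in seed and at 64.3 in leaf. Ca_14780 stood between 42.3 (S3) and 56.7 (S6) in seed and at 60.3 in leaf. For Ca_14780 the rank at S6 was above that at S5 (55.4), although its deposited seed FPKM was highest at S5. The means over the 8 libraries were 4.15 FPKM (Ca_09238), 5.76 (Ca_04491), 3.35 (Ca_14780) and 7.79 (Ca_09815).

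**Figure D3:**
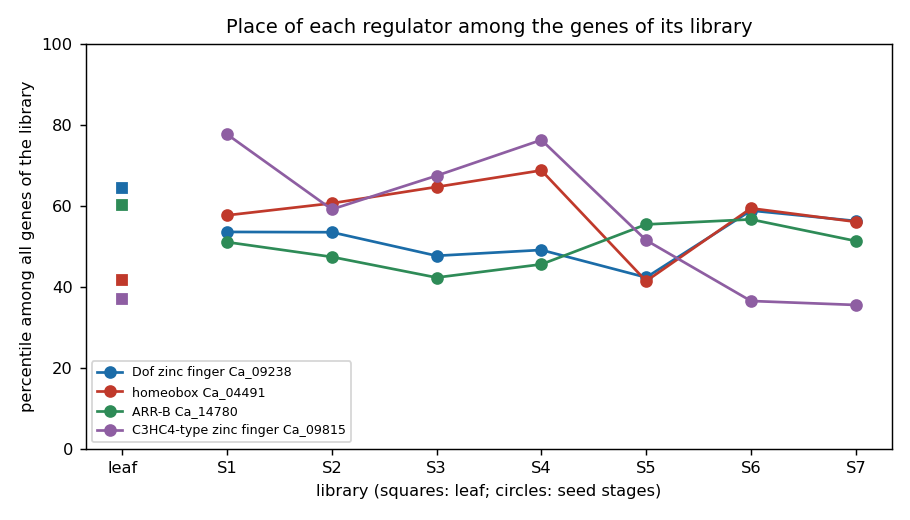
Percentile of each regulator among the 28269 genes of its own library, by FPKM (vertical axis), in leaf (squares) and S1 to S7 (circles joined by lines). The homeobox and C3HC4-type genes are above the other regulators from S1 to S4, and the homeobox gene drops from 68.8 at S4 to 41.4 at S5.

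The breadth of expression was described by the index tau on the log2(FPKM + 1) scale, which is 0 for equal levels in all libraries and 1 for a gene found in 1 library only. It was 0.36 for Ca_14780, 0.37 for Ca_09238, 0.40 for Ca_04491 and 0.56 for Ca_09815. Of 19505 genes with at least 1 FPKM in at least 1 library, 76.0% had a lower index than Ca_09815, and 52.4% to 58.2% had a lower index than each of the other three. The C3HC4-type gene was thus the most stage-restricted of the set, and the others lay near the middle of all genes.

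All 4 regulators belong to the 53 candidate genes of the study, which were chosen with the S3 and S5 libraries. The direction of this list between those stages is thus no independent evidence. The study chose 45 of these genes at S3 stage and 9 at S5 stage, Ca_09238 at both. Of the 53 genes, 13 were lower and 1 higher by 2-fold from S4 to S5, beside 7.99% and 7.57% of all genes. The median change was -0.72 against 0.00 over all genes. Ca_04491 had the second largest fall among them at this step, Ca_09815 the fifth and Ca_09238 the 12th. Ca_14780 had the fourth largest rise.

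The pattern of Ca_04491 and Ca_09238 at S5, at least 2-fold below S4 and S6, was shown by 4 of the 53 candidates, themselves included, and by 1.56% of all genes. By highest library, 22 of the 52 candidates with at least 1 FPKM in at least 1 library peaked at S1, 10 at S2, 5 at S4, 7 at S7 and 8 in leaf, the last including Ca_09238 and Ca_14780. Over the 19505 genes that passed the same minimum, the shares were 12.4% at S1, 5.51% at S2, 6.73% at S4, 22.6% at S7 and 22.5% in leaf. None of the 52 was highest at S3, S5 or S6. The choice of candidates favours low values at S3 for the 45 chosen there, and at S5 only for the 9 chosen there.

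**Figure D4:**
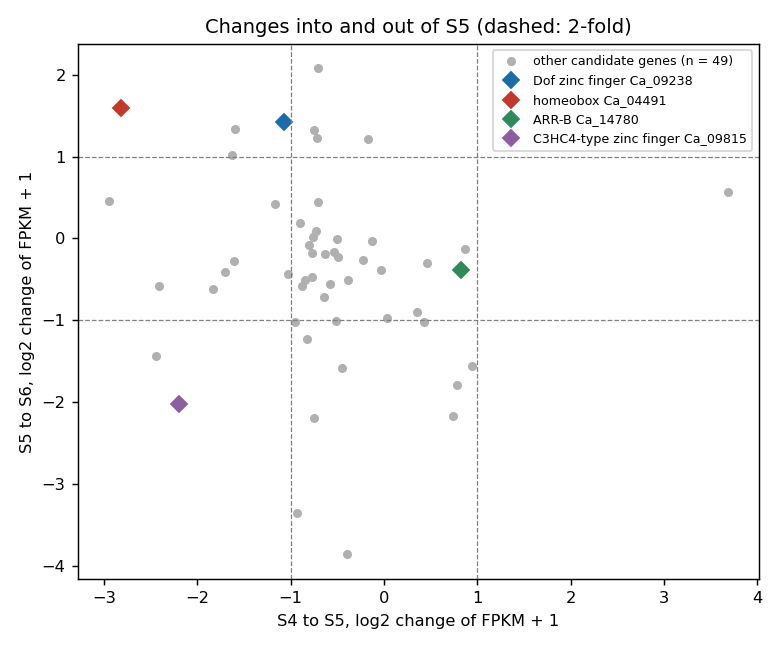
Log2 change of FPKM + 1 from S4 to S5 (horizontal axis) against that from S5 to S6 (vertical axis) for the 53 candidate genes, with the 4 regulators as coloured diamonds and the other 49 genes as grey points. Dashed lines mark 2-fold. The homeobox gene (-2.82 and 1.59) and the Dof gene (-1.07 and 1.43) lie at the upper left, the C3HC4-type gene (-2.20 and -2.02) at the lower left and the ARR-B gene (0.83 and -0.39) on the right.

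The regulators are also held by wider lists of the study, which were drawn with the S3 and S5 stages as well. The cell cycle list (287 genes) contains Ca_14780 and Ca_09815, and the list of genes within quantitative trait loci (QTL) for seed size/weight (1027 genes) contains Ca_09238 and Ca_04491. From S4 to S5, 51 of the cell cycle genes were lower and 11 higher by 2-fold, and Ca_09815 had the seventh largest fall. From S4 to S6, which involves neither S3 nor S5, 111 of the cell cycle genes were lower and 28 higher, with a median change of -0.57. The shares over all genes were 7.99% and 7.57% in the first interval, and 19.4% and 19.8% in the second. Genes under 1 FPKM in both libraries cannot reach 2-fold on this scale. Among genes with at least 1 FPKM in either library, the shares were 12.8% and 12.1%, then 30.9% and 31.6%. From S4 to S6, Ca_09815 was lower (-4.22), and Ca_14780 was under 2-fold with a direction that turned with scaling (0.44 as deposited, 0.060 with the median ratio, -0.15 with the upper quartile and -0.77 with the same sum).

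Of the QTL genes, 132 (12.9%) were lower and 105 (10.2%) higher by 2-fold from S4 to S5, with a median change of -0.05. The shares over all genes at that step were 7.99% and 7.57%. Among genes with at least 1 FPKM in either library they were 12.8% and 12.1%. The QTL genes were counted without that minimum. Of them, 904 reached 1 FPKM in at least 1 library, against 19505 of all 28269 genes. Ca_04491 ranked 23rd by size of fall among the 1027 and Ca_09238 ranked 120th. From S4 to S6, 250 (24.3%) were lower and 233 (22.7%) higher. The shares in that interval were 19.4% and 19.8% over all genes. Among genes with at least 1 FPKM in either library they were 30.9% and 31.6%. Of the 2 regulators in this list, Ca_04491 was lower (-1.22) and Ca_09238 was under 2-fold with no stable direction, as described above.

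The study names 9 further genes beside these regulators, and their profiles were set against those of the 4 genes. The correlations below are over 8 libraries that share their processing and are descriptions. Among them are an auxin response factor (ARF) gene, Ca_10748, whose family carries auxin responses to target promoters, and 2 GH3 genes, whose family conjugates auxin to amino acids. CDC6 (Ca_15618) helps to load the minichromosome maintenance helicase onto DNA before replication, and 3 further genes (Ca_09549, Ca_15408, Ca_12014) carry the name minichromosome in the study. An RNA recognition motif gene (Ca_09981) and an F-box gene (Ca_01760) complete the list.

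By Pearson r over the 8 libraries, Ca_09815 was closest to the ARF gene (r of 0.94, Spearman's rho of 0.76) and Ca_12014 (0.91 and 1.00). By Spearman's rho Ca_12014 came first, and CDC6 (0.90) and Ca_15408 (0.83) stood above the ARF gene. Over the 7 seed libraries r was 0.96 for Ca_12014 and 0.93 for the ARF gene. The ARF gene had 53.0 FPKM at S1, 61.9 at S2 and 29.3 at S3, then 31.9 at S4, 16.2 at S5, 0.681 at S6, 0.727 at S7 and 0.117 in leaf. Both genes were thus high up to S4 and below 1 FPKM at S6, S7 and in leaf, but the ARF gene lacked the low S2 value of Ca_09815. Pearson r with Ca_09815 was 0.87 for CDC6, 0.87 for Ca_15408 and 0.68 for Ca_09549.

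CDC6 had 8.03 FPKM at S1, 1.93 at S4, 0.587 at S5 and 0.0572 at S6. Unlike Ca_09815, CDC6 and the minichromosome genes Ca_09549 and Ca_15408 did not return at S4 to a level near that of S1. Ca_12014 had 3.52 FPKM at S1, 1.62 at S2, 2.27 at S4 and 0.262 at S7, and its order over the 8 libraries was the same as that of Ca_09815. The GH3 gene Ca_06937, highest at S7 with 101 FPKM, ran against Ca_09815 (-0.60, and -0.91 over the 7 seed libraries).

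For the other regulators the coefficients were smaller. Ca_04491 correlated with Ca_09549 at 0.62, with the ARF gene at 0.63 and with Ca_09815 at 0.68. Ca_09238 was closest to the F-box gene (0.58) and the GH3 gene Ca_23631 (0.55). With the 9 genes, the coefficients of Ca_14780 as deposited lay between -0.51 (Ca_09981) and 0.28 (Ca_23631). With the same sum they lay between -0.78 (Ca_06937) and 0.79 (Ca_23631). Between the 2 leaf-high regulators, Ca_09238 and Ca_14780, r was 0.37 over all libraries and -0.07 over the seed libraries, and between Ca_04491 and Ca_14780 it was -0.61. With the same sum these 2 coefficients over all libraries became 0.77 and 0.20. Coefficients of the other regulators moved as well, from 0.04 to 0.52 between Ca_09238 and Ca_04491, from -0.16 to 0.45 between Ca_09238 and Ca_09815, and from -0.54 to 0.28 between Ca_09815 and the F-box gene.

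**Figure D5:**
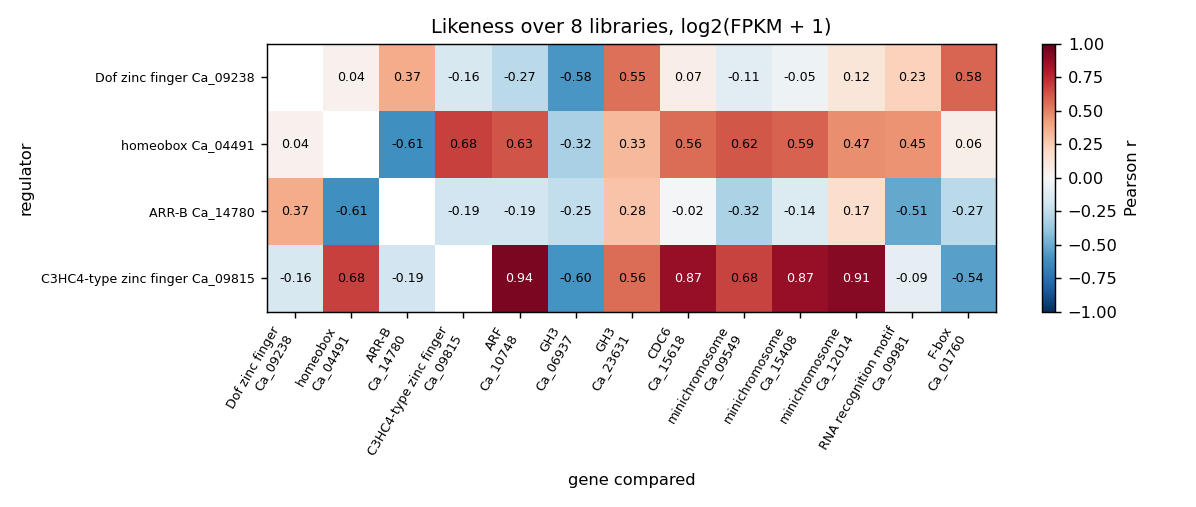
Pearson r of log2(FPKM + 1) over 8 libraries between each of the 4 regulators (rows) and the regulators and 9 further genes named by the study (columns), with the value in each cell. White cells on the diagonal were not computed. As deposited, the row of the C3HC4-type gene holds the largest values, with 0.94 for the ARF gene and 0.91 for minichromosome gene Ca_12014.

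The genes with the most similar profiles among all genes were sought for each regulator, by Pearson r over the 8 libraries among 19504 other genes with at least 1 FPKM in at least 1 library. These genes are given by identifier, and their function was not examined. For Ca_09815 they were Ca_02391 (0.99) and the pair Ca_04413 and Ca_04414 (0.99 each), which take the same value from a locus they share. A total of 197 genes reached 0.95 with Ca_09815.

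For Ca_04491 the most similar were Ca_18471 (0.98), Ca_21344 (0.97) and Ca_10232 (0.96), and 5 genes reached 0.95. Ca_18471 had 6.51 FPKM at S4, 0.838 at S5 and 2.97 at S6, and Ca_21344, at a far higher level, had 764 FPKM at S4, 21.2 at S5 and 177 at S6. These genes were picked for their likeness over the same libraries, S5 included, so their low S5 values follow from that choice, and the same holds for the genes named below.

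For Ca_09238 they were Ca_05240 (0.97), Ca_15033 (0.97) and Ca_00722 (0.96), and 7 genes reached 0.95. All 3 were highest in leaf and lowest at S5, and Ca_00722 had 303 FPKM in leaf and 46.7 at S5. Ca_05240 is in the cell cycle list of the study. For Ca_14780 they were Ca_19760 (0.94), Ca_15432 (0.93) and Ca_26573 (0.93), and no gene reached 0.95. Each was highest in leaf and had its highest seed value at S5, with 708 FPKM in leaf and 624 at S5 for Ca_19760. The names depend on the measure, and 3 of these 12 were found again with Spearman's rho.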

How the data were processed

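To make the deposited FPKM values, the authors used NGS QC Toolkit for read filtering, TopHat for mapping to the chickpea genome and Cufflinks for quantification. The genome build for these reads, the merging of replicates and any scaling between libraries are not given in the sources used here. The deposited FPKM values hold 1 merged value per locus and stage, so p-values, SD and count tests were not computed.

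Each library listed 35234 loci. Loci of a gene were summed, and loci that join identifiers were used only for genes without one of their own. A RefSeq table of assembly Cicar.CDCFrontier_v2.0 matched 0 of 28269 identifiers, so no coordinates or sequences are given, and leaf and seed labels were not checked against markers. Gene names are the paper's.

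Changes are log2 of the ratio of FPKM + 1, counted at 2-fold without a filter. Shares over all genes thus include genes under 1 FPKM in both libraries, which cannot reach 2-fold on this scale. Members and lists were chosen with earlier results of these data known. Genes named are the 4 regulators, 9 others named in the paper's text and, for each regulator, the 3 with the highest Pearson r. The candidate, cell cycle and QTL lists come from supplementary datasets of the paper and include only genes associated with differential methylation or expression between cultivars. One dataset was held in shortened form and bears on the candidate list only. Alternatives were pseudocounts of 0.1 and 0.01, a minimum of 1 FPKM, 3 scalings (same sum, median ratio, upper quartile), genes with 1 locus of their own, and other measures of likeness. S2 to S4 and S4 to S6 were added after seeing the data. Counting and likeness were tested on simulated data with small noise and a planted copy of a profile. That test checks the code only, not calls at low FPKM. Python 3.11.15, numpy 2.4.6, pandas 2.3.3 and matplotlib 3.10.9 were used.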

Additional observations from a re-analysis of the deposited data

How the results depend on the processing

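No paired analysis was possible because replicates were merged to 1 value for leaf and for each stage, and for the same reason no replicate could be left out. With the same sum, 3 changes between successive stages or from leaf turned direction, Ca_04491 from S2 to S3 (-0.16) and from leaf to S5 (-0.30) and Ca_14780 from S4 to S5 (-0.20). From S4 to S6, a comparison added after seeing the data, the direction also turned for Ca_09238 (-0.95 with the same sum, -0.059 with the median ratio, -0.29 with the upper quartile) and Ca_14780 (-0.77 with the same sum, -0.15 with the upper quartile). From S3 to S5, 0 regulators were higher with the same sum in place of 1. With pseudocounts of 0.1 and 0.01, 1 regulator was higher from S4 to S5 in place of 0. Over all genes at that step, 2141 were higher and 2259 lower as deposited. There were 3263 higher with a pseudocount of 0.01 and 734 with the same sum. The lower genes numbered 4031 with a pseudocount of 0.1, 5249 with 0.01, 11387 with the same sum and 3524 with the upper quartile. The ratio of the highest to the lowest library became 15.2 for Ca_09238, 34.6 for Ca_04491, 11.4 for Ca_14780 and 1245 for Ca_09815 with the same sum, and 7.64 for Ca_14780 and 739 for Ca_09815 with the upper quartile. The highest library of each regulator was the same under all 3 scalings. Of the 12 most similar genes, 3 were found again with Spearman's rho, 3 without leaf and 2 with the same sum. The cause of these differences was not tested. Unknown depth limits the values below 1 FPKM, above all those of Ca_09815 at S6 and S7.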
